A study of Mus musculus with 4 samples.

Results

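Splicing factors and nuclear RNA-binding proteins were followed in alveolar macrophages of mice, the phagocytes that reside in the airspaces, with SAGE (serial analysis of gene expression). The members are the gene symbols that start with Srsf, Sfrs, Sf3a, Sf3b, Snrp, Snrnp, Hnrnp, Hnrp or Prpf, which gave 70 of the 11754 symbols listed in the deposited tables. Of these 70 members, 56 had counts in at least 1 library and 14 were listed at 0 in all 4 libraries. The day 21 metastasis group held 2 libraries from wild-type BALB/c mice with lung metastases, 21 days after intravenous injection of BNL, a hepatocellular carcinoma cell line of the mouse. The untreated group held 2 libraries from wild-type BALB/c mice without that injection. No sham injection is described for untreated mice, so the injection itself and the metastases cannot be told apart. Whether replicate libraries came from different mice or pools is not labelled either, and p-values then measure only a spread between libraries that may be technical. Values below are given for replicate 1 and then replicate 2 of each group.

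Introns are removed from nascent transcripts by the spliceosome, an assembly of small nuclear ribonucleoprotein particles (snRNPs) and other proteins. Sm proteins form the ring around the RNA of most of these particles, SF3A and SF3B are part of the U2 particle that recognises the branch point, and Prpf proteins are named after yeast genes required for precursor mRNA processing. SR proteins bind exons and mostly favour the use of nearby splice sites, whereas heterogeneous nuclear ribonucleoproteins (hnRNPs) coat nascent RNA and often oppose it. In macrophages, SR proteins and hnRNPs are known to act on the splicing of transcripts of inflammatory genes.

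Each SAGE tag is the 21 bases next to a site of NlaIII, an enzyme that cuts at CATG, and so it reports a transcript at that site whatever its length. The tags below carried the counts that the results turn on. They are written 5′ to 3′ on the strand of the transcript as CATG in capitals, the NlaIII site, followed by the tag as deposited. For Snrpb and Hnrnpl more than 1 tag is shown because their counts were divided between tags.
Snrpe: CATGctaaaaggagataatattact
Sf3b2: CATGctgctaagcagaagcaaaaga
Srsf4: CATGttggtagccgtagcacaagag
Srsf6: CATGtcccctccgccaaaaagagct
Hnrnpk: CATGtccctggcatttgttcagagc
Hnrnpu: CATGtcagttcttgaatgggtatct
Hnrnpa3: CATGacacagttgataaaattgttg
Sf3a2: CATGcctccccctcccccaggcaac
Prpf18: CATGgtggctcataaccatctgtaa
Snrpb, exon 3: CATGacagtagaaggacctcctccc
Snrpb, exon 7: CATGgagtctccctggattgtctgg
Hnrnpl, exon 10: CATGtttgggcagaagatgaatgtc
Hnrnpl, exon 9: CATGgtctatggcttggatcaatct
Hnrnpl, exon 14: CATGtatcttggcacatttcaataa

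Positions are from a match of CATG plus the tag to GENCODE M21 transcripts on GRCm38. The Snrpe tag lies at chr1:133604045-133604069 on the minus strand, in coding sequence of exon 5 of 5 of Snrpe-204, and it also matches Snrpert. The Sf3b2 tag joins exons 20 and 21 of 21, in coding sequence, and its ends lie at 5274521 and 5274809 on the minus strand of chromosome 19. The Srsf4 tag lies at chr4:131901113-131901137 on the plus strand, in the 3′ UTR in exon 6 of 6. The Srsf6 tag lies at chr2:162934679-162934703 on the plus strand, in coding sequence of exon 6 of 6. Both Hnrnpk (chr13:58392019-58392043, exon 16 of 16) and Hnrnpu (chr1:178328389-178328413, exon 14 of 14) were counted mainly at a 3′ UTR tag on the minus strand. The Sf3a2 tag lies at chr10:80804787-80804811, in coding sequence of exon 9 of 9. The Hnrnpa3 tag (chr2:75662082-75662106, exon 4 of 11) matches 22 genes, nearly all of them predicted genes, and the Prpf18 tag, in its 3′ UTR, matches 9 genes. The main tags of Hnrnpl and Srsf3 match 2 genes each, and those of Hnrnpc and Snrpd2 match 3. Counts of Snrpe, Hnrnpa3, Prpf18, Hnrnpl, Srsf3, Hnrnpc and Snrpd2 therefore remain uncertain, since other genes could share them.

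The total count was 1783814 and 1630776 in the day 21 metastasis libraries, against 1962569 and 2198563 in the untreated ones. Since a tag count of 1 never occurs, a 0 stands for 0 or 1 reads. No molecular identifiers marked PCR copies. Counting error is all that the floors and the intervals of percent shares cover. The intervals of log2 changes also include the fitted spread between libraries. Alveolar macrophage markers were present: 16 of 17 listed ones had counts, among them Chi3l3 (1834 and 3897 counts on day 21, 671 and 2921 untreated) and Ear2 (532 and 936 on day 21, 472 and 2027 untreated), while Fabp4 was listed at 0 and Marco had 2 counts in all. These markers went both ways. Krt79 had 159 and 29 counts on day 21, against 670 and 514 untreated, and Itgax 64 and 71, against 134 and 183. Ctsd had 649722 and 579508 counts on day 21, against 489239 and 492961 untreated. Of the 15 alveolar macrophage markers tested, 0 passed the test described below. Markers of other macrophages, 8 of 9 with counts, summed to 2119 and 3204 CPM, tag counts scaled to a common library size of 1000000, on day 21, against 47.8 and 95.4 CPM untreated, and 5 of them passed the test described below. Neutrophil markers, 3 of 4 with counts, summed to 73.8 and 272 CPM on day 21, against 9.27 and 153 CPM untreated. Lung epithelial markers, 3 of 7 with counts, summed to 32.9 and 44.6 CPM on day 21, against 82.0 and 153 CPM untreated. The 4 T and natural killer cell markers, the 3 B cell markers and the 3 endothelial markers in the tables were all at 0. The part of these other cells in the members' values was not tested, and in bulk RNA fewer cells of a type and less RNA per cell cannot be told apart.

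None of the 24 members that could be tested differed between day 21 metastasis and untreated libraries at an adjusted p under 0.05. The test was edgeR's quasi-likelihood test over all 2979 symbols that passed its filter on low counts, with Benjamini-Hochberg adjustment, and it called 22 symbols, 0.739%. No member had an unadjusted p under 0.05 either, against 168 symbols or 5.64% of those tested, and DESeq2 and limma-voom likewise called 0 members. The smallest unadjusted p among members was 0.219, for Hnrnpk, and the adjusted p of every tested member was 0.998. The tested members had mean levels of 5.37 to 864 CPM. The 32 members with lower counts, up to 39 in all 4 libraries together, were not tested.

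The intervals were wide, so these data bound the members' differences only loosely. The standard error of the log2 change (day 21 metastasis minus untreated) ran between 0.55 and 0.91, and the 95% interval reached between 1.12 and 1.87 log2 units to either side. For 16 of the 24 tested members the interval lay within 2 log2 units of 0, and for 0 of them within 1. The log2 change was negative for 18 tested members (75%) and for 54.4% of all tested symbols. Its median was -0.15 over the tested members and -0.07 over all tested symbols. Without day 21 metastasis replicate 1 the members' median was -0.49 (30 tested), beside -0.14 over all symbols tested. Without untreated replicate 1 the members' median was -0.44 (28 tested), beside -0.0083 over all symbols tested. The count of negative values moved with the libraries used, and without untreated replicate 2 it was 13 of 24, beside 50.0% of all symbols tested then. With total counts alone as the scale it was 23 of 24, beside 67.4% of all tested symbols.

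**Figure D1:**
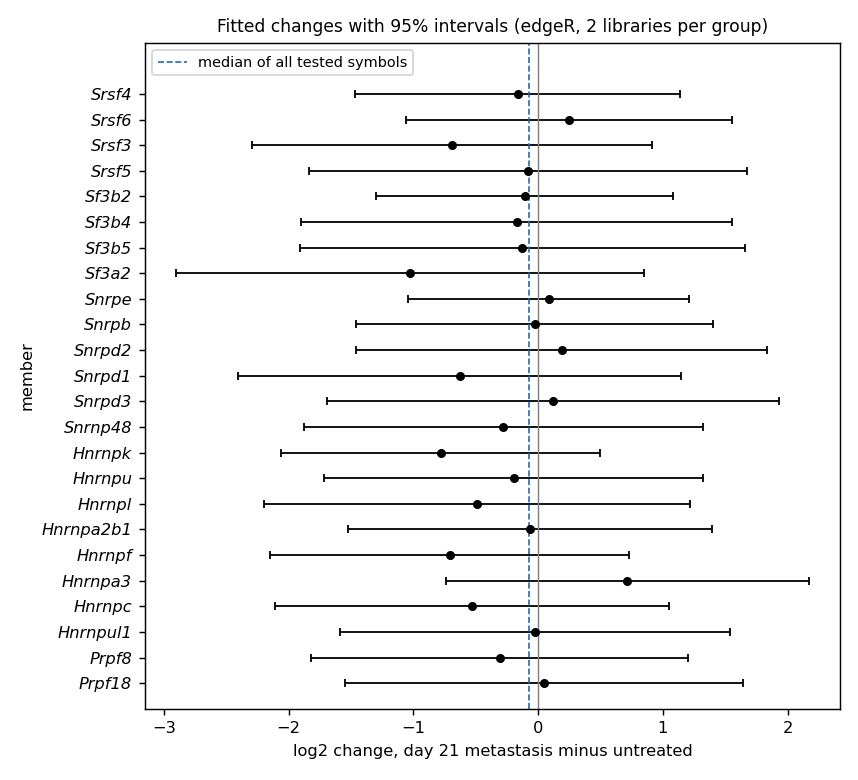
Fitted log2 change of each of the 24 tested members, day 21 metastasis minus untreated, with its 95% interval from edgeR (2 libraries per group). The dashed line is the median of all 2979 tested symbols, and every interval includes 0.

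The larger of the 2 within-group ratios exceeded the fitted fold between groups for 19 of the 24 tested members, close to the 81.3% of all tested symbols for which it did. The median ratio of the higher to the lower library was 1.53 between the day 21 metastasis libraries and 1.70 between the untreated ones, and over all tested symbols it was 1.54 and 1.75. The median fitted fold between groups, in either direction, was 1.14 for the tested members and 1.38 for all tested symbols. Groups did not overlap for 8 tested members (33.3%), against 31.2% of all tested symbols. Of these 8, Hnrnpa3 was higher on day 21 and 7 were lower, whereas 15.2% of all tested symbols were higher and 16.0% lower without overlap. The 7 were Srsf3, Sf3a2, Snrpd1, Snrnp48, Hnrnpk, Hnrnpf and Prpf8. Over both directions together the share was close to that background.

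**Figure D2:**
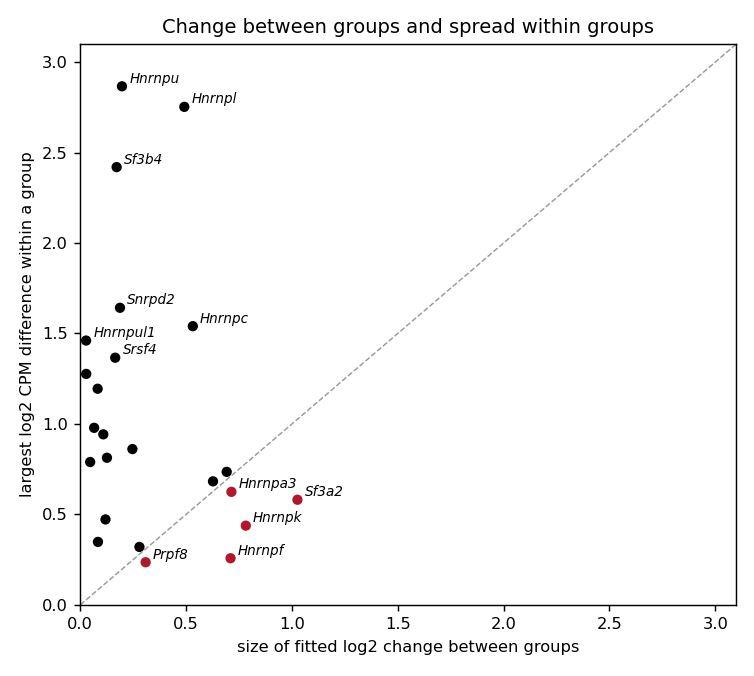
Size of the fitted log2 change between groups (x axis) and the largest log2 CPM difference between the 2 libraries of a group (y axis) for the 24 tested members. The 5 red points below the dashed line of equality are Hnrnpf, Hnrnpk, Sf3a2, Hnrnpa3 and Prpf8, and Hnrnpu lies highest, with a within-group ratio of 7.29.

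Members held 3928 and 2607 counts on day 21, against 4853 and 4775 untreated. This was 0.220% (95% exact Clopper-Pearson interval 0.213 to 0.227) and 0.160% (0.154 to 0.166) of the counts on day 21, and 0.247% (0.240 to 0.254) and 0.217% (0.211 to 0.223) untreated. Ctsd alone held 36.4% and 35.5% of all counts on day 21, against 24.9% and 22.4% untreated. Gm3903 held 3.47% and 8.13% on day 21, against 11.3% and 11.7% untreated. The part of such abundant genes in the members' shares of the total was not tested. After TMM scaling the sums were 2231 and 1845 CPM on day 21, against 2369 and 1939 CPM untreated, and the groups overlapped. Snrpe, Sf3b2 and Srsf4 made up 72.5% of all member counts, so these sums mostly reflect 3 genes. Without them the members summed to 544 and 483 CPM on day 21, against 620 and 624 CPM untreated.

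**Figure D3:**
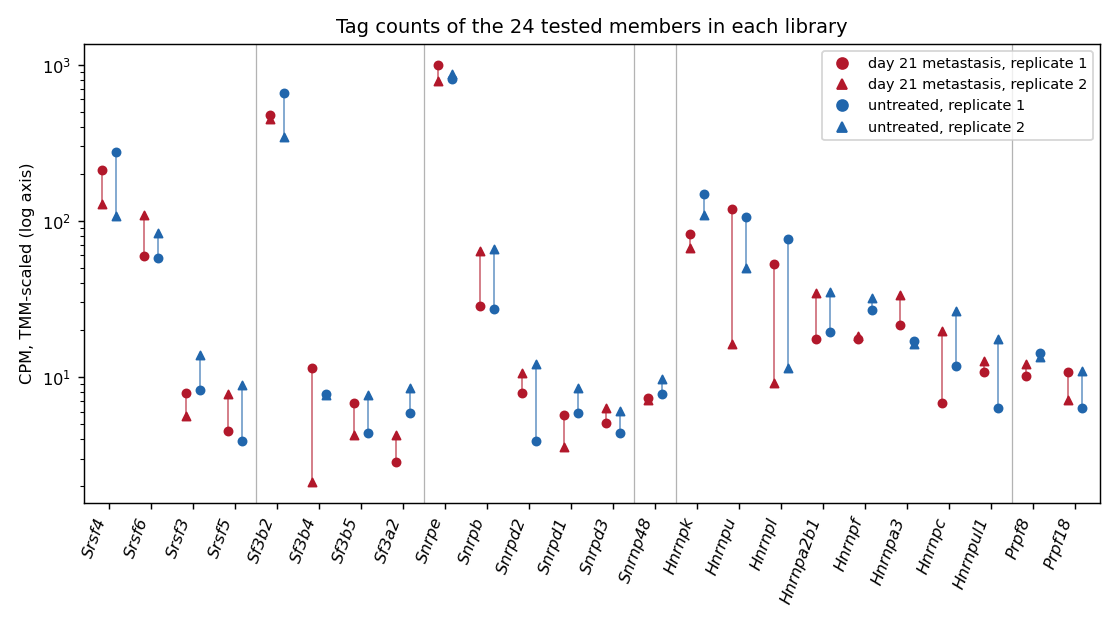
Level of each of the 24 tested members in each library, in CPM after TMM scaling on a log axis, with day 21 metastasis libraries as red and untreated libraries as blue symbols. Snrpe and Sf3b2 stand above the rest in every library. Srsf4 has the next highest mean level, but Hnrnpk is above it in untreated replicate 2 (109 against 107 CPM). For 16 of the 24 members the values of the 2 groups overlap.

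The SR proteins were represented mainly by Srsf4 and Srsf6. Of 12 SR members 9 had counts, 4 were tested and none passed the test, with 1 positive and 3 negative log2 changes and a median of -0.12. Their summed level was 288 and 253 CPM on day 21, against 350 and 221 CPM untreated. Srsf4, a large SR protein, had 374 and 181 counts (212 and 128 CPM) on day 21, against 564 and 263 counts (275 and 107 CPM) untreated. Replicate 1 was the higher library in both groups and the groups overlapped, with a log2 change of -0.16 ± 0.63 (SE; 95% interval -1.47 to 1.14). Srsf6 had 105 and 153 counts (59.6 and 108 CPM) on day 21, against 119 and 205 counts (58.1 and 83.3 CPM) untreated. Here replicate 2 was the higher library in both groups, and the log2 change was 0.25 ± 0.63. Srsf3, a short SR protein that also takes part in mRNA export, had 14 and 8 counts on day 21, against 17 and 34 untreated. Its 2 day 21 libraries, at 7.95 and 5.66 CPM, lay below the untreated ones at 8.30 and 13.8 CPM, and the log2 change was -0.69 ± 0.78 (interval -2.29 to 0.91, unadjusted p = 0.382). Srsf5 had 8 and 11 counts on day 21, against 8 and 22 untreated (-0.08 on the log2 scale), mostly in a tag that matches 2 genes.

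The best known SR proteins were barely counted. Srsf1, the first SR protein described as a splicing factor, was listed at 0 in both day 21 libraries and had 4 and 2 counts untreated. Srsf2, a component of nuclear speckles, was at 0 and 0 on day 21, against 0 and 8 untreated, and Srsf7 was at 0 and 0 on day 21, against 0 and 7 untreated. With 8 listed tags of 0 or 1 reads each, a 0 for Srsf1 allows up to 9.05 counts in a library, and with 3 tags a 0 for Srsf2 allows up to 6.43. A difference of this size was not detectable at this depth. Srsf9, Srsf12 and Sfrs18 were at 0 in all 4 libraries; the tags deposited as Srsf12 carry an accession of Srek1, and Sfrs18 is an older name of Pnisr.

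In the SF3 complex, Sf3b2 exceeded every other subunit in tag counts. All 8 SF3 members had counts, 4 were tested, none passed the test, and all 4 log2 changes were negative with a median of -0.15. Sf3b2 had 842 and 638 counts (478 and 452 CPM) on day 21, against 1351 and 845 counts (659 and 343 CPM) untreated. Both day 21 values lay between the untreated ones, and the log2 change was -0.11 ± 0.58 (interval -1.30 to 1.08). Sf3b2 ranked 178 by mean CPM among all symbols with counts. Sf3b1, which in human cells contacts the branch point and is altered in several blood cancers, was near the limit. It had 0 and 5 counts on day 21, against 0 and 4 untreated. Its only counted tag lies in exon 10 of 25, whereas the main Sf3b2 tag joins exons 20 and 21 of 21. Their levels thus come from unlike sites, and the part of the site was not tested. Sf3b4 had 20 and 3 counts on day 21, against 16 and 19 untreated, so its spread came from the day 21 libraries. Sf3b5, a small subunit, had 12 and 6 counts on day 21, against 9 and 19 untreated (-0.13 on the log2 scale). Sf3a2 had 5 and 6 counts (2.84 and 4.25 CPM) on day 21, against 12 and 21 counts (5.86 and 8.53 CPM) untreated. Its log2 change of -1.03 ± 0.91 (interval -2.90 to 0.85, unadjusted p = 0.270) was the most negative among the tested members, on few counts. Sf3a1 was at 0 and 0 on day 21, against 4 and 4 counts untreated, where a 0 allows up to 7.07 counts.

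The Sm ring was counted very unevenly. Of 8 Sm members 6 had counts and 5 were tested, with 3 positive and 2 negative log2 changes, a median of 0.08 and none past the test. Snrpe, the Sm E protein, had 1754 and 1106 counts (996 and 783 CPM) on day 21, against 1667 and 2131 counts (814 and 865 CPM) untreated. The 2 untreated values lay between the day 21 values. The log2 change was 0.08 ± 0.55, and the interval spanned a fold of 0.486 to 2.31, the narrowest among the members. Snrpe ranked 117 among all symbols with counts and made up 41.2% of all member counts, with the limit that its main tag also matches Snrpert. The other proteins of the same ring had far lower tag levels, but their main tags were not all at a like site. Those of Snrpe and Snrpg lie next to the last NlaIII site of an annotated transcript. Those of Snrpb, Snrpd1, Snrpd2 and Snrpd3 lie at an earlier site. The part of the site in these levels was not tested. Snrpb, the Sm B protein, had 28.4 and 63.7 CPM on day 21, against 27.3 and 66.2 CPM untreated, with replicate 2 the higher library in both groups and a log2 change of -0.03 ± 0.69. Snrpd2 had 14 and 15 counts on day 21, against 8 and 30 untreated, with a log2 change of 0.19 ± 0.80. Snrpd3 had 9 and 9 counts on day 21, against 9 and 15 untreated (0.12 on the log2 scale). Snrpd1 had 10 and 5 counts (5.68 and 3.54 CPM) on day 21, against 12 and 21 counts (5.86 and 8.53 CPM) untreated, groups that just failed to overlap, with a log2 change of -0.63 ± 0.86 (interval -2.40 to 1.15). Snrpg had 9 and 4 counts on day 21, against 8 and 18 untreated, and was not tested. Snrpf, another ring protein, and Snrpn, a relative of Snrpb known mainly from brain, were at 0 in all libraries.

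Proteins particular to one kind of snRNP were all scarce. Of 11 such members 9 had counts, summing to 22.1 and 18.4 CPM on day 21, against 24.4 and 34.9 CPM untreated, and only Snrnp48 was tested. Snrnp48, a protein of the minor spliceosome, had 13 and 10 counts on day 21, against 16 and 24 untreated, with a log2 change of -0.28 ± 0.78. Snrpb2, which belongs to the U2 particle, had 8 and 2 counts on day 21, against 6 and 14 untreated. Snrnp27, a protein of the U4/U6.U5 tri-snRNP, had 0 and 3 counts on day 21, against 7 and 14 untreated. The U1 proteins Snrnp70, Snrpa and Snrpc and the U5 helicase Snrnp200 had counts of 0 to 13 per library.

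The hnRNPs held the member of smallest p and the members of widest spread. Of 20 hnRNP members 16 had counts and 8 were tested, with 1 positive and 7 negative log2 changes, a median of -0.34 and none past the test. They summed to 344 and 214 CPM on day 21, against 428 and 313 CPM untreated, and the groups overlapped. Hnrnpk, which binds C-rich RNA and DNA, had 145 and 94 counts (82.3 and 66.5 CPM) on day 21, against 302 and 268 counts (147 and 109 CPM) untreated. Its mean was 74.4 ± 11.2 CPM on day 21 and 128 ± 27.3 CPM untreated (SD, n = 2 each), and both day 21 libraries lay below both untreated ones. The log2 change was -0.78 ± 0.62 (interval -2.06 to 0.50, edgeR unadjusted p = 0.219), and it ranged between -0.96 and -0.54 when any 1 library was left out. Hnrnpf, which binds G-rich stretches, had 31 and 26 counts (17.6 and 18.4 CPM) on day 21, against 55 and 79 counts (26.8 and 32.1 CPM) untreated. The groups did not overlap, and the log2 change was -0.71 ± 0.70 (interval -2.15 to 0.73).

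Other hnRNPs varied widely between libraries of the same group. Hnrnpu, also known as scaffold attachment factor A, had 209 and 23 counts (119 and 16.3 CPM) on day 21, against 216 and 123 counts (105 and 50 CPM) untreated. Its day 21 libraries differed 7.29-fold, and the log2 change of -0.20 ± 0.74 turned to 0.65 without day 21 metastasis replicate 2 and to 0.44 without untreated replicate 1. Hnrnpl, which binds CA repeats, had 93 and 13 counts (52.8 and 9.20 CPM) on day 21, against 157 and 28 counts (76.6 and 11.4 CPM) untreated. Replicate 1 was higher than replicate 2 in both groups, 6.74-fold in the untreated one, and the log2 change was -0.49 ± 0.83. Hnrnpa2b1, which with Hnrnpa1 is among the classical core hnRNPs, had 31 and 49 counts on day 21, against 40 and 86 untreated (-0.07 ± 0.71 on the log2 scale). Hnrnpc, a core hnRNP that binds U tracts, had 12 and 28 counts on day 21, against 24 and 65 untreated (-0.53 ± 0.77). Hnrnpul1, a relative of Hnrnpu, had 19 and 18 counts on day 21, against 13 and 43 untreated (-0.03 ± 0.76).

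Hnrnpa3 had the most positive log2 change among the tested members. It had 38 and 47 counts (21.6 and 33.3 CPM) on day 21, against 35 and 40 counts (17.1 and 16.2 CPM) untreated. Both day 21 libraries lay above both untreated ones, with a log2 change of 0.71 ± 0.71 (interval -0.74 to 2.17). Of its 160 counts 119 were in the exon 4 tag that matches 22 genes, 26 and 41 on day 21, against 21 and 31 untreated. The 2 tags that match Hnrnpa3 alone had 4 and 6 counts on day 21, against 6 and 6 untreated, for the first and 8 and 0 counts on day 21, against 8 and 3 untreated, for the second. Hnrnpa1 had 3 and 0 counts on day 21, against 13 and 8 untreated, too few to be tested, and the other 7 untested hnRNPs with counts had at most 10 in a library. Hnrnpd, Hnrnpa0, Hnrnph3 and Hnrnpul2 were at 0 in all libraries.

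Among Prpf proteins, Prpf8 and Prpf18 were tested and neither passed. Prpf8, the large U5 protein at the core of the spliceosome, had 18 and 17 counts (10.2 and 12.0 CPM) on day 21, against 29 and 33 counts (14.2 and 13.4 CPM) untreated. Both groups were tight and did not overlap, and the log2 change of -0.31 ± 0.73 (interval -1.82 to 1.20) was small beside its error. Prpf18, a factor of the second splicing step in yeast, had 19 and 10 counts on day 21, against 13 and 27 untreated, in the tag that matches 9 genes. Of the other 9 Prpf members 6 had counts, at most 7 in a library. Prpf39 and Prpf4b were at 0 throughout.

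Members seen in 1 group only were few and had few counts. Counts occurred in both groups for 48 members and in every library for 35. Prpf4 had counts on day 21 only, 2 and 0, against 0 and 0 untreated. Srsf1, Srsf2, Srsf7, Sf3a1, Hnrnph1, Prpf38a and Prpf38b had counts in untreated libraries only, at most 8 in a library. Between 39 and 51 members had counts in a library, 45 and 39 on day 21, against 48 and 51 untreated. The day 21 libraries also had lower totals.

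Where tags of 1 gene lie in different exons, their shares give a limited view of transcript ends and isoforms. The 70 members had 262 listed tags, of which 124 had counts, and each of the 124 matched its own gene. Of these, 25 also matched other genes, and tags that matched 1 gene alone held 54.1% of member counts. They lay in coding sequence (59), in the 3′ UTR (51) or across both (12), with 1 in a 5′ UTR and 1 in a noncoding transcript. Tags next to the last NlaIII site of at least 1 annotated transcript of their gene held most member counts. Their share was 87.0% and 89.1% on day 21, against 88.8% and 88.2% untreated. By number they were 67 of the 124 tags. The share mostly reflects Snrpe, Sf3b2 and Srsf4, which held 72.5% of member counts and whose main tags are of this kind. Any transcript of the gene sufficed, so the main Hnrnpc tag was included although it lies in exon 3 of 9. Of 29 single member tags tested with edgeR 0 passed an adjusted p of 0.05 and 0 an unadjusted p of 0.05, against 0.358% of 3907 tags called over all genes. A test of tag use, the share of a tag within its gene, was possible for 7 members and called 0, as it did over all 750 genes tested (0.0%).

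Snrpb had the smallest p for tag use among these 7 members. Its 3′ UTR tag in exon 7 (chr2:130171814-130171838, minus strand) had 9 and 8 counts on day 21, against 21 and 48 untreated, beside 41 and 79 counts on day 21, against 35 and 115 untreated, for its coding tag in exon 3 (chr2:130175336-130175360). The exon 7 tag thus made up 18.0% (95% exact Clopper-Pearson interval 8.58 to 31.4) and 8.89% (3.92 to 16.8) of Snrpb counts on day 21, against 37.5% (24.9 to 51.5) and 29.4% (22.6 to 37.1) untreated. Both day 21 shares lay below both untreated shares, but the test did not pass, with an unadjusted Simes p of 0.212 and an adjusted p of 1.0 (edgeR diffSpliceDGE). The exon 7 tag alone had a log2 change of -1.46 ± 0.78, and in edgeR its p was 0.083 unadjusted and 0.999 adjusted over all tags. In Sf3b2, 96.1% of the counts were in the junction tag, and the second tag held 3.09% and 7.52% on day 21, against 1.70% and 4.14% untreated. In Hnrnpl the exon 9 tag had 42 and 0 counts on day 21, against 55 and 4 untreated, so its share followed replicate 1 in both groups. In Hnrnpu the main 3′ UTR tag held 84.7% and 52.2% of the counts on day 21, against 82.4% and 68.3% untreated.

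**Figure D4:**
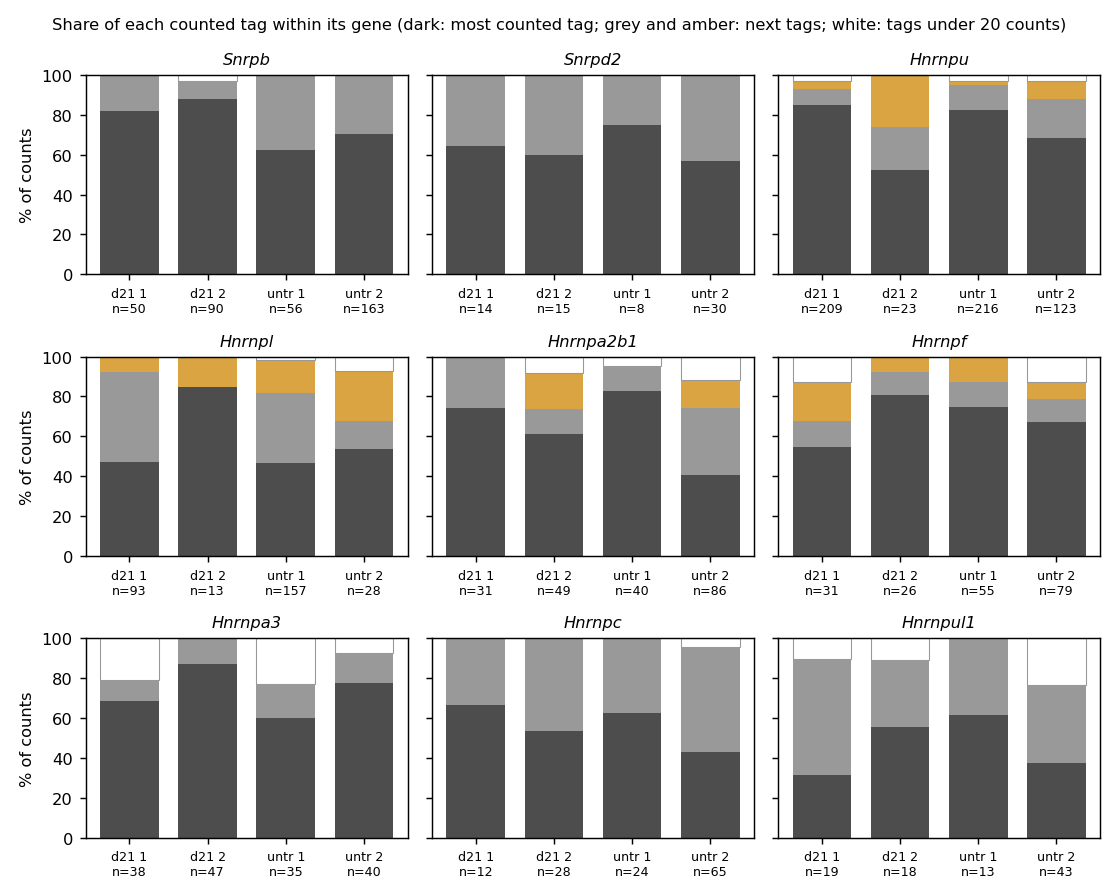
Share of each counted tag within its gene in each library for the 9 tested members with several well-counted tags, as a percent of the gene's counts (n), day 21 metastasis (d21) left of untreated (untr). Dark, grey and amber bars are the 3 most counted tags, in that order, and white the sum of tags under 20 counts. The grey Snrpb part, its exon 7 tag, is smaller in both day 21 libraries.

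Splicing, exon junction and mRNA export genes and other RNA-binding proteins, all with other names, were examined as a list of 152 genes chosen by function. Pnisr and Srek1 of this list were deposited under the member symbols Sfrs18 and Srsf12, and were counted here as not listed. Of the 152 genes, 146 were listed under symbols outside the member rule, 119 had counts and 39 were tested. None passed an adjusted p of 0.05 in edgeR, and 2 of the 39 had an unadjusted p under 0.05, Lsm2 and Eif4a3, a share close to the 5.64% of all tested symbols. Their log2 changes were positive for 16 and negative for 23, with a median of -0.26 beside -0.07 over all tested symbols. Groups did not overlap for 12 of the 39, a share close to the 31.2% of all tested symbols. Lsm2, a protein of the Sm-like ring of U6 that also serves in mRNA decay, was at 0 and 0 counts on day 21, against 12 and 14 untreated (unadjusted p = 0.00283, edgeR adjusted p = 0.179). Eif4a3, the helicase of the exon junction complex, had 6 and 0 counts on day 21, against 24 and 20 untreated (-2.41 ± 1.03 on the log2 scale, edgeR adjusted p = 0.713). In the other direction, Cirbp, a cold-inducible RNA-binding protein, had 11 and 12 counts on day 21, against 3 and 5 untreated (2.02 ± 1.01, edgeR adjusted p = 0.923). Tra2b, an SR-like regulator of exon inclusion, had 28 and 32 counts on day 21, against 6 and 27 untreated (1.45 ± 0.79, edgeR adjusted p = 0.955). In each of these 4 genes the day 21 and untreated counts did not overlap, and none of the differences passed the adjustment.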

How the data were processed

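SAGE libraries of 2 day 21 metastasis and 2 untreated samples were used. The deposited values are raw tag counts with a symbol and RefSeq accession per tag of 21 bases, per the file headers and the values. Per the submitters' processing notes the genome build is mm9. How tags were matched and filtered is not given in the sources used here. Counts were summed per deposited symbol. Tests used edgeR 4.0.16 in R 4.3.3 (quasi-likelihood, TMM, filterByExpr with minimum count 10 and minimum total 15, Benjamini-Hochberg adjustment over 2979 symbols, threshold 0.05, group as the only term), and were first tested on simulated data. TMM factors were 0.987 and 0.866 on day 21 and 1.04 and 1.12 untreated. The error of a log2 change is its size over the square root of its F value. Alternatives included DESeq2 1.42.0, limma 3.58.1 (voom), other scalings, no filter, current gene names, the most counted tag of a symbol, the replicate number as a term, and leaving out each library. The floor of a 0 is the largest count that would still, 5% of the time, leave all listed tags of the gene at 0 or 1 reads if they shared it equally. Tags were matched after CATG to GENCODE M21 (GRCm38).

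Members and lists were chosen with earlier results of these data known. Named members were those past the threshold, the 10 most abundant, the 6 of smallest p per direction with non-overlapping groups, the 2 most abundant per class, the largest change per direction, those with at least 2 tags of at least 10% in a library and 20 counts in all, and those at 0 in 1 group with at least 10 counts in each library of the other. Of the splicing and other RNA-related genes with other names, the 2 of smallest p per direction were named when none passed. Further members with few counts were named after their values were seen.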

Additional observations from a re-analysis of the deposited data

How the results depend on the processing

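With 2 libraries per group, no tested member had an interval that lay within 2-fold of no difference, and members with lower counts were not tested. In all 13 alternatives 0 members and 0 of the splicing and other RNA-related genes with other names passed the test. Neither did any member tag or tag use in the alternatives run for them. Over all symbols 22 were called, against 9 with total counts alone, 41 without the filter, 12 with limma-voom, 9 with the most counted tag and 9 to 81 with 1 library left out (9 without untreated replicate 1, 81 without untreated replicate 2). With a replicate block 37 symbols and 0 members were called. Labels do not say that a replicate number marks shared mice or a shared batch, and with 2 pairs the correlation of deviations, 0.54, gives a hint only. The median log2 change of the tested members was -0.15, against -0.34 with total counts alone (all symbols -0.29) and -0.49 to -0.12 with 1 library left out (-0.49 without day 21 metastasis replicate 1, -0.44 without untreated replicate 1). The set of tested members also changed: 30 without either day 21 library, 28 without untreated replicate 1 and 24 without untreated replicate 2. The cause of the shifts in the median was not tested. Total counts alone turned the sign of Snrpe (-0.13), Srsf6 (-0.012), Snrpd2 (-0.065) and Prpf18 (-0.17). Upper-quartile factors turned Hnrnpul1 (0.022) and Snrpb (0.022), limma-voom and the replicate block turned Hnrnpul1 (0.15 and 0.11), and the most counted tag turned Hnrnpa2b1 (0.16) and Snrpb (0.28). With 1 library left out, the sign turned for 13 of the 21 named tested members, whose log2 changes ranged as follows: Snrpe -0.048 to 0.28, Srsf4 -0.67 to 0.68, Srsf6 -0.21 to 0.67, Sf3b2 -0.48 to 0.44, Sf3b4 -1.79 to 0.58, Snrpb -0.69 to 0.78, Snrpd2 -0.39 to 1.25, Hnrnpu -2.20 to 0.65, Hnrnpl -2.20 to 1.45, Hnrnpa2b1 -0.60 to 0.44, Hnrnpc -1.45 to 0.20, Hnrnpul1 -0.57 to 0.91 and Prpf18 -0.28 to 0.52. The lone library of a group was then assumed to vary like the others. The other 8, among them Hnrnpk, Hnrnpf, Sf3a2 and Hnrnpa3, kept their sign in every alternative that gave a value.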

Other observations

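Among the splicing and other RNA-related genes with other names, some had tag levels as high as the leading members. They were chosen for their abundance after the values were seen. Luc7l2, a relative of a yeast U1 protein, had 1172 and 1462 CPM on day 21, against 1126 and 1962 CPM untreated (log2 change -0.23 ± 0.54). Ddx39b, a helicase of splicing and mRNA export, had 545 and 502 CPM on day 21, against 575 and 396 CPM untreated (0.11 ± 0.57). Safb, a nuclear scaffold protein, had 356 and 61 counts on day 21, against 698 and 264 untreated (-0.86 ± 0.71). In Safb, as in Hnrnpu and Hnrnpl, day 21 metastasis replicate 2 was the lowest of the 4 libraries. The groups overlapped in all 3 genes and none had an edgeR unadjusted p under 0.05.

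The letters AATAAA, the common polyadenylation signal, occurred in 6 of 124 counted member tags (4.84%), those of Hnrnpa1, Hnrnpr, Hnrpdl, Prpf38b, Sf3b4 and Snrpd2, and in 377 of the 15785 counted tags of all genes (2.39%), searched on the strand of the transcript. A match is a description of the letters in the tag.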
